A study of Mus musculus with 9 samples.

Results

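The collagen genes were taken as every gene in the count table whose symbol reads Col, a number, the letter a and a number. The rule gave 44 genes of 24062, and 40 of these were among the 12989 genes with enough reads to be tested. By chain type, 11 were fibrillar, 8 were basement-membrane collagens and 25 were other collagens, of which all 11, all 8 and 21 were tested. RNA came from gastrocnemius, the large muscle of the calf. The mice were 3 months old, on a 129Sve/C57BL/6 mixed background. The 9 libraries fall into 3 genotypes of 3 libraries each: hetX753 and hetL1002P, which each carry an altered copy of the BubR1 gene (Bub1b) beside a normal copy, and wild type (WT). BubR1 is a spindle checkpoint protein, and both alleles are named in the labels for MVA, mosaic variegated aneuploidy. The labels describe no treatment, name no founder or litter, and do not say that each library is a separate mouse. P-values therefore measure the spread between these libraries, which may be partly technical.

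Collagens are the main structural proteins of the extracellular matrix, built from alpha chains that wind together into rope-like helices. Fibrillar collagens, led by types I and III, form the tension-bearing fibres of the connective tissue sheaths in muscle and of tendon, and fibroblasts make most of them. Type IV chains form the sheet-like network of the basement membrane around each muscle fibre and each capillary, where types XV and XVIII also sit. Type VI forms beaded microfilaments between that membrane and the fibres of the surrounding matrix, and faults in its genes cause muscular dystrophies in humans. In whole-muscle RNA, fewer cells of a type and less RNA per cell cannot be told apart.

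The promoters of 3 collagen genes are printed whose hetX753 values did not overlap WT values, Col3a1 and Col6a2 below and Col8a1 above. None of these passed (adjusted p = 0.369, 0.277 and 0.148, edgeR), and lack of overlap was less common among collagens than over all tested genes. Col24a1 and Col27a1 also did not overlap and had a usable window, but are not printed. Each printed window is the 250 bases upstream of the gene start from RefSeq (build GRCm38.p6), 5′ to 3′ on the strand of the gene. The motifs searched were TATAA and CCAAT as well as GGGCGG, each on both strands, and capitals mark every match.
Col3a1, chr1:45311288-45311537, plus strand: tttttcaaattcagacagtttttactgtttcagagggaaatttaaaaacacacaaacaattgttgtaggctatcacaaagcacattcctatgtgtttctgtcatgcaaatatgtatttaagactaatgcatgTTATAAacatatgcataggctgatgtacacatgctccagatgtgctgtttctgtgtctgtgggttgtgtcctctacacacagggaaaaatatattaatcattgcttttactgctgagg
Col6a2, chr10:76623631-76623880, minus strand: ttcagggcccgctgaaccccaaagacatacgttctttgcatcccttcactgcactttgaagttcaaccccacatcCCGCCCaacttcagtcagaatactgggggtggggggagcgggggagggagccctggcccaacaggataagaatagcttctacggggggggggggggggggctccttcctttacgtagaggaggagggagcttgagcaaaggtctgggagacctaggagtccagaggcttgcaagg
Col8a1, chr16:57754738-57754987, minus strand: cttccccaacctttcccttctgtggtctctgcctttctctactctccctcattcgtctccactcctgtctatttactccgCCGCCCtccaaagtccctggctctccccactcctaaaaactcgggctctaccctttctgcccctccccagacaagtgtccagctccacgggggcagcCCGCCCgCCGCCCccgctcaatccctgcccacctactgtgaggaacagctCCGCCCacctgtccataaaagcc
In the Col3a1 window TATAA was found 2 times, on opposite strands and overlapping within TTATAA, and no other motif was found. The Col6a2 window held 1 GGGCGG and the Col8a1 window 4, all 5 of them read on the opposite strand as CCGCCC. Of 32851 windows of the same length over all genes, 22.8% held TATAA, 33.8% CCAAT and 32.7% GGGCGG. Of 38 windows of 35 collagen genes, 7, 13 and 22 held them. A match is a description of letters and not a mapped site.

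Library totals ran from 19768149 to 33977252 counted reads. Bub1b had 8, 8 and 5 counts in hetX753 libraries, 10, 9 and 2 in hetL1002P libraries, and 21, 11 and 16 in WT libraries. Both carrier genotypes were below WT for it (log2 fold changes -1.21 and -1.21, adjusted p = 0.177 and 0.579, edgeR), and neither difference passed, though the CPM of all 6 carrier libraries lay below those of all 3 WT libraries. The labels give no batch or date. Libraries hetL1002P 3 and WT 3 stood apart from the other 7. On the first principal component, with 39.7% of the variance, they lay at -32.5 and -47.5, and the other 7 between -9.52 and 28.9. In these 2 libraries long transcripts were read less: the level relative to the mean over libraries moved by -0.128 and -0.285 on the log2 scale per doubling of transcript length, against -0.0748 to 0.180 in the others. The tested collagens have long transcripts, with a median of 5989 bases against 3159.5 bases for all tested genes. Results are therefore also given without these 2 libraries.

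The most abundant collagen transcripts were those of types I, III, IV and VI. On a scale of CPM (counts scaled to a common library size) per kilobase of transcript, which allows levels of genes to be compared, Col1a2 averaged 33.2 over the 9 libraries. Col3a1 averaged 31.7, Col1a1 22.6, Col4a1 18.5, Col4a2 15.3, Col6a1 14.4 and Col6a2 12.4 CPM per kb. Below these came Col15a1 at 5.96, Col5a3 at 5.61 and Col5a1 at 3.96 CPM per kb. Together the 44 collagens took 0.0699% to 0.162% of all counted reads in a library. The 4 genes with the lowest mean CPM were not tested, with at most 8 counts in any library for Col9a3, 3 for Col25a1, 2 for Col6a4 and 2 for Col10a1. Col10a1 marks growth cartilage and Col9a3 cartilage. Of 8 listed cartilage and bone genes, Matn1 and Ibsp were at 0 counts in all 9 libraries, and Acan reached at most 0.0483 CPM. Sox9 and Runx2 had enough reads to be tested, and the 8 genes summed to 1.02 to 2.10 CPM in a library. Of the 40 tested genes, 31 reached the filter's cutoff of 0.408 CPM in all 9 libraries and 9 in fewer.

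**Figure D1:**
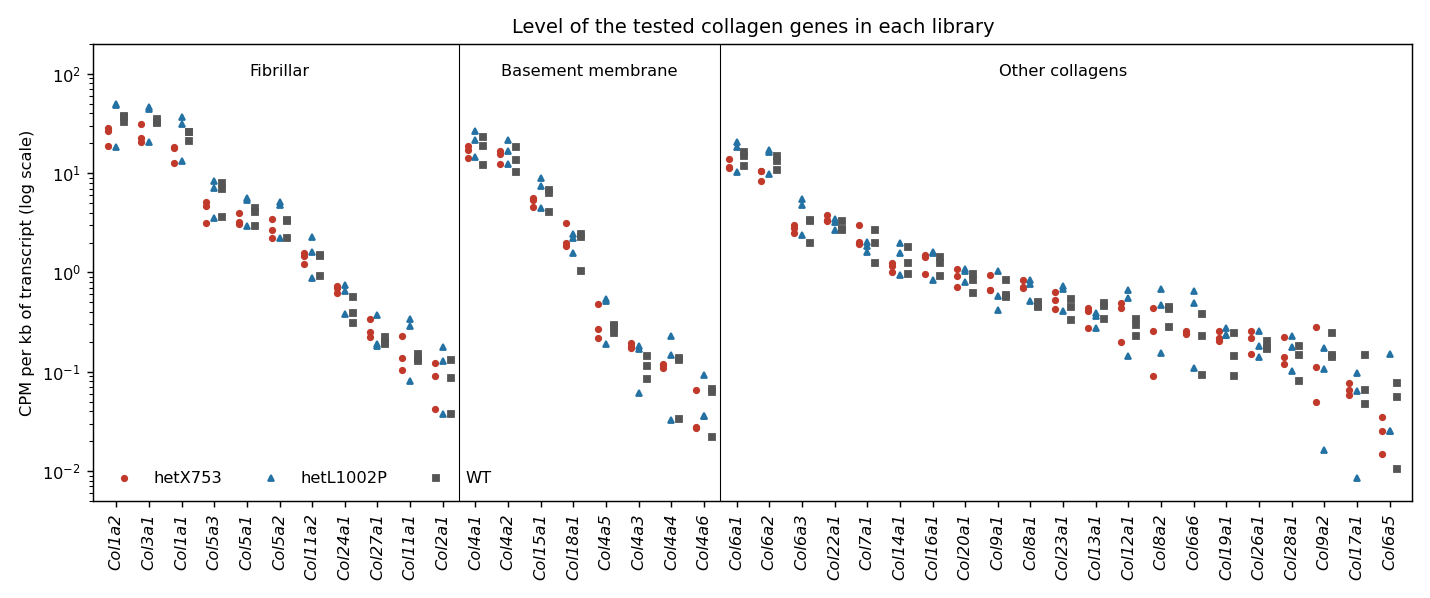
Level of the 40 tested collagen genes in CPM per kb of transcript (log axis), by class and in order of mean level; each point is a library, with hetX753, hetL1002P and WT from left to right. Levels span from Col1a2 (mean 33.2 CPM per kb) to Col6a5 (mean 0.0466 CPM per kb), and differences between genes exceed those between genotypes.

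Whether either Bub1b allele alters collagen transcripts was asked gene by gene in a fit of all tested genes. In the fit of all 9 libraries on genotype, no collagen gene passed an adjusted p of 0.05 in any comparison by edgeR's quasi-likelihood test, and none by DESeq2. Against WT, hetX753 had 0 of 40 collagens called where 0.508% of all tested genes were called (66 genes, 0.331% higher and 0.177% lower). For hetL1002P against WT the count was 0 of 40, and over all tested genes 0% (0 by edgeR and 5 by DESeq2). These 2 genotypes count as paired by replicate number from correlations in these same data, and no label gives a pairing. With the number as a block in a fit of the 2 alone, 635 genes and 1 collagen (Col6a3) were called. With the trend on length and GC content also removed, 1 gene and 0 collagens were called. For hetX753 against hetL1002P the count in the fit of all 9 libraries was 0 of 40, with 0.115% of all tested genes called (15 genes). In the joint test of 3 genotypes 0 of 40 collagens and 0.216% of all tested genes were called. At an unadjusted p under 0.05 there were 2 collagens in hetX753 against WT, Col8a1 and Col24a1, or 5% of 40 where 20.9% of all tested genes were. There was 1 in hetL1002P against WT, Col8a1 (all genes 7.96%), and 1 jointly, also Col8a1 (all genes 14%). In hetX753 against hetL1002P there were 2, Col1a1 and Col6a2 (all genes 8.24%).

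The direction of the collagens as a group differed by comparison. In hetX753 against WT, 19 of 40 log2 fold changes lay below 0 and 21 above, with a median of 0.05. Of all tested genes 50.4% lay above 0, with a median of 0.00. In hetL1002P against WT, 36 of 40 lay above 0 with a median of 0.25, where 51.9% of all tested genes lay above 0 with a median of 0.01. In hetX753 against hetL1002P, 28 of 40 lay below 0 with a median of -0.28, where 52.6% of all tested genes lay below with a median of -0.01. Single libraries moved these counts: without WT 3, 25 of 40 lay below 0 in hetX753 against WT, and without hetL1002P 2, 17 of 40 lay below 0 in hetL1002P against WT. With the trend on length and GC content removed, 25 of 40 lay below 0 in hetX753 against WT. In hetL1002P against WT 14 then did, against 4 with the trend left in, and in hetX753 against hetL1002P 28 did, as before. The comparisons share libraries with each other. Collagen genes vary together between libraries, so these counts are not 40 separate observations.

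**Figure D2:**
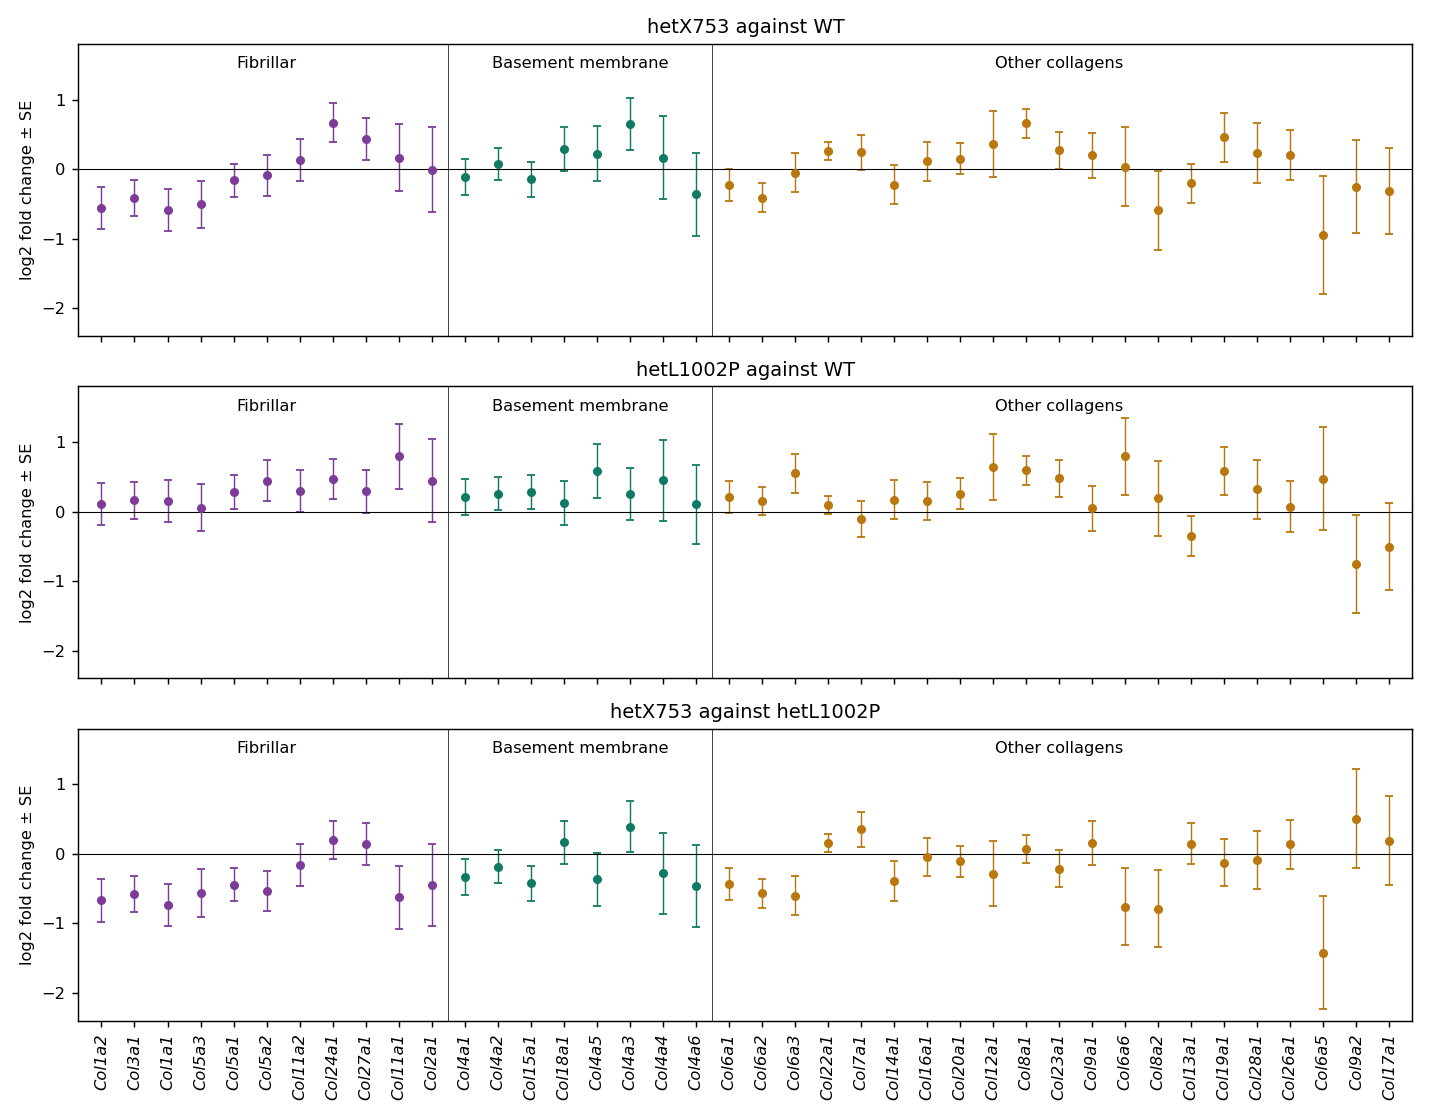
Log2 fold change with its standard error (edgeR) for each of the 40 tested collagens, ordered within class by mean CPM, in hetX753 against WT (top), hetL1002P against WT (middle) and hetX753 against hetL1002P (bottom). In the top panel Col1a1 (-0.58), Col1a2 (-0.56) and Col3a1 (-0.42) lie below 0 and Col24a1 (0.67) and Col8a1 (0.66) above, and no point passed an adjusted p of 0.05.

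The abundant fibrillar collagens were lower in hetX753 libraries than in WT libraries, but not beyond what the test allows. Col1a1 encodes the major chain of type I collagen. It had 74.4, 107 and 109 CPM in hetX753 libraries, 216, 186 and 79.5 CPM in hetL1002P libraries, and 156, 154 and 124 CPM in WT libraries. All hetX753 libraries lay below all WT libraries, and hetL1002P 3 was lower than any WT library while the other 2 were higher. The log2 fold change of Col1a1 in hetX753 against WT was -0.58 ± 0.30 (SE, adjusted p = 0.29). In hetX753 against hetL1002P it was -0.73 ± 0.30 (adjusted p = 0.563, edgeR).

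Col1a2, the partner chain of type I, had 99.7, 143 and 151 CPM in hetX753 libraries, 259, 267 and 99.1 CPM in hetL1002P libraries, and 198, 203 and 177 CPM in WT libraries. Its hetX753 and WT values did not overlap, and hetL1002P spanned both. The log2 fold change was -0.56 ± 0.31 in hetX753 against WT (adjusted p = 0.315) and 0.11 ± 0.31 in hetL1002P against WT (adjusted p = 0.897). Col3a1 forms type III collagen, which mixes with type I in stretchy tissue. It had 125, 175 and 116 CPM in hetX753 libraries, 247, 256 and 116 CPM in hetL1002P libraries, and 195, 182 and 177 CPM in WT libraries. The hetX753 values again lay below the WT values, library 2 by a narrow margin, with a log2 fold change of -0.42 ± 0.26 (adjusted p = 0.369).

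Type V collagen sits inside type I fibrils and limits their width. Col5a1 averaged 28.7 ± 4.02 CPM in hetX753, 39.0 ± 12.6 in hetL1002P and 32.2 ± 6.77 in WT libraries (SD, n = 3 each). Col5a2 averaged 18.6 ± 4.27, 26.8 ± 10.6 and 19.7 ± 4.22 CPM, and Col5a3 26.5 ± 6.43, 39.0 ± 15.4 and 37.6 ± 13.9 CPM, in the same order of genotypes. Their values overlapped in hetX753 and WT libraries, with log2 fold changes of -0.16 (Col5a1), -0.09 (Col5a2) and -0.51 (Col5a3) and adjusted p of 0.716, 0.883 and 0.401.

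The less abundant fibrillar genes did not follow type I. Col24a1, a fibrillar gene known from developing bone and eye, had 4.46, 4.93 and 5.26 CPM in hetX753 libraries, 5.35, 4.6 and 2.7 CPM in hetL1002P libraries, and 4.08, 2.22 and 2.76 CPM in WT libraries. Its hetX753 values lay above its WT values, at a log2 fold change of 0.67 ± 0.28 (adjusted p = 0.216, edgeR). Col27a1, expressed in cartilage, was also free of overlap and higher in hetX753 (log2 fold change 0.43 ± 0.31, adjusted p = 0.422). Col11a2, Col11a1 and Col2a1, chains best known from cartilage, had log2 fold changes of 0.13, 0.17 and -0.01 in hetX753 against WT, with overlapping values. Col11a1 and Col2a1 averaged 0.177 and 0.0949 CPM per kb. Over the 11 fibrillar genes the median log2 fold change was -0.09 in hetX753 against WT (7 below 0), 0.29 in hetL1002P against WT (0 below 0) and -0.53 in hetX753 against hetL1002P (9 below 0). The median of the class varied between libraries of a genotype with an SD of 0.442 on the log2 scale.

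**Figure D3:**
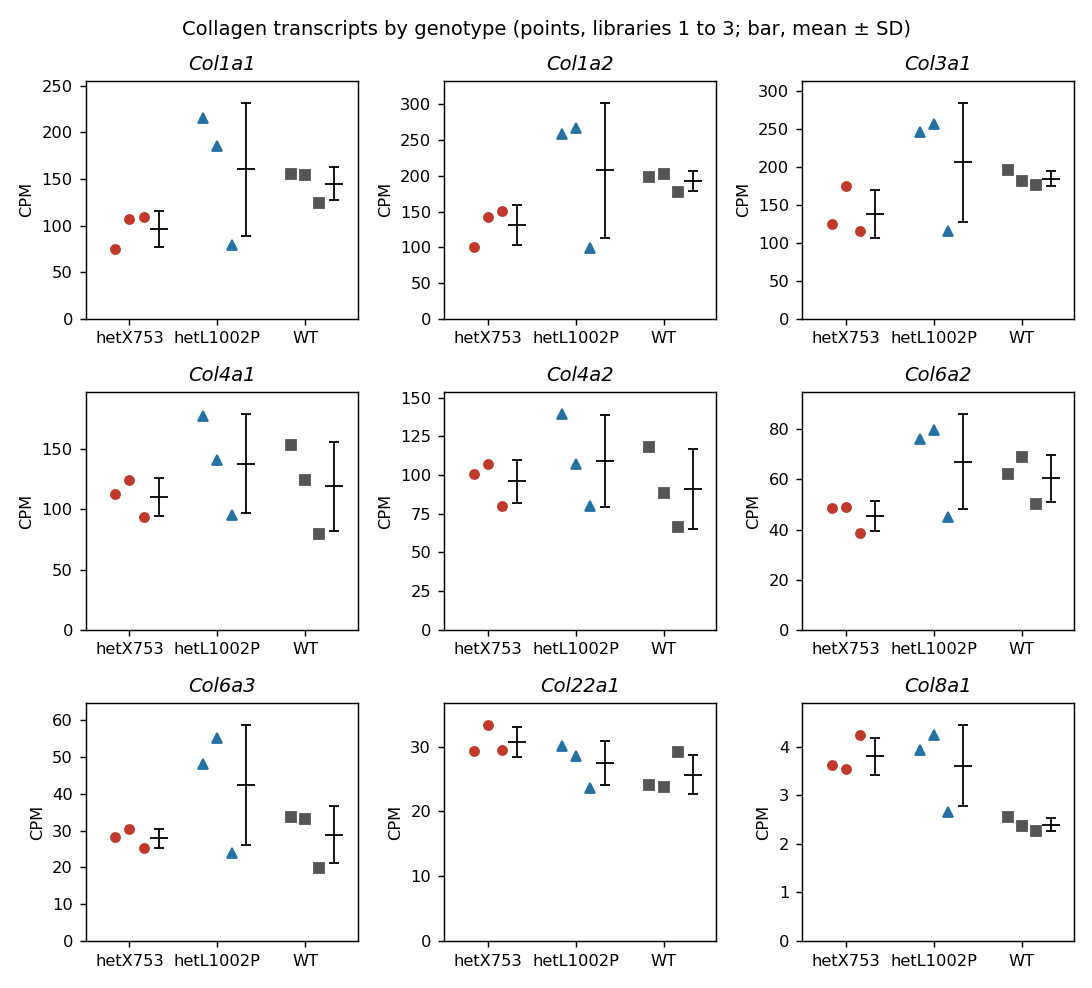
CPM of 9 collagen genes by genotype, with hetX753, hetL1002P and WT from left to right; points are libraries 1 to 3 and the bar is the mean ± SD (n = 3). For Col1a1, Col1a2, Col3a1 and Col6a2 all hetX753 points lie below all WT points, for Col8a1 and narrowly Col22a1 above, and hetL1002P 3 is the lowest of its genotype in each panel.

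The abundant basement-membrane chains Col4a1, Col4a2 and Col15a1 lay close to WT in hetX753 libraries, while the scarcer Col4a3 lay above. Col4a1 and Col4a2 encode the chains of the common type IV network. Col4a1 had 113, 124 and 93.4 CPM in hetX753 libraries, 178, 141 and 95.3 CPM in hetL1002P libraries, and 153, 125 and 79.8 CPM in WT libraries. Col4a2 had 100, 107 and 80.1 CPM in hetX753 libraries, 140, 107 and 79.9 CPM in hetL1002P libraries, and 118, 88.3 and 66.7 CPM in WT libraries. For both genes the values of all 3 genotypes overlapped, and library 3 was the lowest in each genotype. The log2 fold changes in hetX753 against WT were -0.12 ± 0.26 for Col4a1 and 0.07 ± 0.23 for Col4a2 (adjusted p = 0.819 and 0.878), and without WT 3 that of Col4a2 was -0.11.

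Col15a1 and Col18a1 encode the basement-membrane collagens whose ends give restin and endostatin. Col15a1 averaged 26.8 ± 2.95 CPM in hetX753, 35.9 ± 11.6 in hetL1002P and 29.7 ± 7.56 in WT libraries (SD, n = 3 each). Col18a1 averaged 13.1 ± 4.09, 11.6 ± 2.58 and 10.7 ± 4.21 CPM in the same order. The values of both overlapped in hetX753 and WT libraries, with log2 fold changes of -0.15 and 0.29. Col4a3, Col4a4 and Col4a5, the chains of the kidney filter's membrane, averaged 0.145, 0.118 and 0.336 CPM per kb, and Col4a6 0.0482. Col4a3 had 1.47, 1.66 and 1.57 CPM in hetX753 libraries, 1.46, 1.55 and 0.522 CPM in hetL1002P libraries, and 1.24, 0.981 and 0.725 CPM in WT libraries. It did not overlap between hetX753 and WT, at a log2 fold change of 0.65 ± 0.37 (adjusted p = 0.331), and its exons overlap those of another gene on the opposite strand, whose reads cannot be told apart from its own. Col4a6 had a log2 fold change of -0.36 ± 0.60 in hetX753 against WT. The 8 basement-membrane genes had a median log2 fold change of 0.12 in hetX753 against WT (5 above 0), 0.26 in hetL1002P against WT (8 above 0) and -0.30 in hetX753 against hetL1002P (2 above 0). The SD of the class median between libraries of a genotype was 0.426.

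Type VI collagen led the other collagens. Col6a2 had 48.7, 48.9 and 38.5 CPM in hetX753 libraries, 76.3, 79.9 and 45.2 CPM in hetL1002P libraries, and 62, 69 and 50.3 CPM in WT libraries. All hetX753 values lay below all WT values, while hetL1002P 3 fell within the hetX753 range. The log2 fold change was -0.41 ± 0.21 in hetX753 against WT (adjusted p = 0.277) and -0.57 ± 0.21 in hetX753 against hetL1002P (adjusted p = 0.474, edgeR). Col6a1, which joins Col6a2 in the same trimer, averaged 50.3 ± 5.95 CPM in hetX753, 67.7 ± 22.5 in hetL1002P and 58.7 ± 9.57 in WT libraries (SD, n = 3 each), with overlap. Its log2 fold change was -0.22 ± 0.23 in hetX753 against WT (adjusted p = 0.583).

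Col6a3, the long chain of type VI, had 28.4, 30.3 and 25.2 CPM in hetX753 libraries, 48.2, 55.1 and 24.1 CPM in hetL1002P libraries, and 33.7, 33.2 and 19.9 CPM in WT libraries. In hetL1002P libraries 1 and 2 were above all WT libraries and library 3 was within the WT range. Its log2 fold change in hetL1002P against WT was 0.55 ± 0.28 (adjusted p = 0.579). Same-numbered hetL1002P and WT libraries deviated together, and with the replicate number as a block in a fit of these 2 genotypes the log2 fold change was 0.50 (adjusted p = 0.033, edgeR). In that fit 635 genes were called, 2.63% of 12684 tested genes as higher and 2.37% as lower, against 0 without the block. Col6a3 was the only collagen called in it, 1 of 37 tested, and its value per library was higher in hetL1002P in 3 of 3 numbered pairs. These pairs are the data of that same fit and not separate support, and no label gives the pairing. With the trend on length and GC content also removed, 1 gene and 0 collagens were called. Col6a5 and Col6a6, relatives of Col6a3, averaged 0.0466 and 0.299 CPM per kb. Their standard errors of 0.85 and 0.57 in hetX753 against WT leave their direction unresolved.

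Col8a1 had the smallest p of all collagens against WT in both carriers. It encodes a short chain of the network-forming type VIII collagen, known from vessel walls and from the membrane behind the cornea. It had 3.63, 3.55 and 4.25 CPM in hetX753 libraries, 3.93, 4.24 and 2.66 CPM in hetL1002P libraries, and 2.54, 2.37 and 2.27 CPM in WT libraries. All 6 carrier libraries lay above all 3 WT libraries, and the carriers overlapped each other. The log2 fold change was 0.66 ± 0.21 in hetX753 against WT (adjusted p = 0.148, edgeR). In hetL1002P against WT it was 0.59 ± 0.21 (adjusted p = 0.579, edgeR). Under the alternatives besides single left-out libraries, it ran from 0.47 to 0.78 in hetX753 and from 0.37 to 0.73 in hetL1002P against WT. These alternatives include removal of the length and GC trend. The 2 differences share the WT libraries and are not separate observations. Its partner Col8a2 had 0.395, 1.1 and 1.89 CPM in hetX753 libraries, 2.05, 2.95 and 0.664 CPM in hetL1002P libraries, and 1.92, 1.86 and 1.21 CPM in WT libraries, which overlapped throughout. Smooth muscle and pericyte markers, which mark vessel walls, summed to 419 to 551 CPM in hetX753, 332 to 497 in hetL1002P and 267 to 388 in WT libraries. Of these 10 markers, 10 had a log2 fold change above 0 in hetX753 against WT and 7 in hetL1002P against WT, and 0 were called. Of all tested genes 50.4% and 51.9% lay above 0 in these comparisons. The 10 markers were not read with the length and GC trend removed, and their part in the Col8a1 difference was not tested.

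Col22a1 encodes the collagen of the myotendinous junction, where muscle fibres attach to tendon. It had 29.3, 33.3 and 29.5 CPM in hetX753 libraries, 30.1, 28.6 and 23.6 CPM in hetL1002P libraries, and 24.1, 23.7 and 29.2 CPM in WT libraries. Its hetX753 values lay just above its WT values, at a log2 fold change of 0.26 ± 0.13 (adjusted p = 0.28). With a correction for transcript length and GC content, it was -0.08. Col22a1 also varied least within genotypes among the 15 collagens averaging at least 10 CPM, with a mean coefficient of variation of 10.6%. The median of these 15 was 24.5%, against 11.3% for all 6840 genes averaging at least 10 CPM. The 6840 genes were not matched to the collagens for level or transcript length.

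Among the remaining collagens the genotypes overlapped. Col7a1, the anchoring-fibril collagen of skin, averaged 21.5 ± 5.62 CPM in hetX753, 16.9 ± 1.91 in hetL1002P and 18.2 ± 6.66 in WT libraries (SD, n = 3 each). Its log2 fold change was 0.24 ± 0.26 in hetX753 against WT (adjusted p = 0.601). Col23a1, a transmembrane collagen, averaged 3.00 ± 0.556 CPM in hetX753, 3.44 ± 0.970 in hetL1002P and 2.48 ± 0.581 in WT libraries, with a log2 fold change of 0.48 ± 0.27 in hetL1002P against WT (adjusted p = 0.579). Col12a1 and Col14a1, which decorate the surface of fibrils, had log2 fold changes of 0.36 ± 0.48 and -0.22 ± 0.28 in hetX753 against WT. Col13a1, a transmembrane collagen of the neuromuscular junction, averaged 0.382 CPM per kb, with log2 fold changes of -0.20 and -0.35 against WT in hetX753 and hetL1002P. Over the 21 tested other collagens the median log2 fold change was 0.11 in hetX753 against WT (12 above 0), 0.19 in hetL1002P against WT (17 above 0) and -0.11 in hetX753 against hetL1002P (8 above 0). The SD of their median between libraries of a genotype was 0.339.

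Counted over all classes, hetX753 and WT values did not overlap for 4 collagens that were lower in hetX753, Col1a1, Col1a2, Col3a1 and Col6a2. That is 10% of 40, against 15.8% of all tested genes. The count was 5 for those higher in hetX753, Col4a3, Col8a1, Col22a1, Col24a1 and Col27a1, or 12.5% against 16.7% of all tested genes. For hetL1002P against WT it was 1 higher (Col8a1), or 2.5% against 5.67%, and 0 lower, against 3.77%. For hetX753 against hetL1002P it was 0 in either direction, against 7.44% of all tested genes higher and 6.98% lower. In each case the share among collagens was below that over all tested genes.

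Leaving out hetL1002P 3 and WT 3 moved these results. In hetX753 against hetL1002P, 7 collagens were then called lower, where 0.509% of 13156 tested genes were called lower: Col1a1, Col1a2, Col5a1, Col15a1, Col6a1, Col6a2 and Col6a3. Their log2 fold changes ran from -1.05 for Col1a1 to -0.66 for Col15a1, with adjusted p between 0.00979 and 0.0413 (edgeR). In hetX753 against WT, Col6a2 was called lower (log2 fold change -0.53, adjusted p = 0.0443, edgeR), where 1.04% of all tested genes were called lower, and no other collagen was. In the joint test 6 collagens were called (the same without Col15a1), where 1.47% of all tested genes were. The hetL1002P group then held 2 libraries, both high in collagens, so the calls in that comparison rest on them. Their length slopes were 0.121 and 0.180, opposite in sign to those of the libraries left out, and those of hetX753 libraries were 0.0250, 0.0474 and 0.129. No fit both left out libraries and removed the length and GC trend. The median deviation of the collagens from their mean over libraries was 0.42 and 0.55 on the log2 scale in these 2 hetL1002P libraries. In the libraries left out it was -0.47 for hetL1002P and -0.48 for WT, and in the hetX753 libraries it was -0.13, 0.13 and -0.07. Leaving out hetL1002P 3 alone gave 1 collagen in hetX753 against hetL1002P, Col1a2 (adjusted p = 0.0493, edgeR), where 0.0834% of all tested genes were called lower, and 2 jointly, Col1a1 and Col1a2, where 1.58% of all tested genes were.

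With the trend on length and GC content removed from the fit of all 9 libraries, the medians in hetX753 against WT were -0.32 for fibrillar, -0.10 for basement-membrane and -0.08 for other collagens. In hetL1002P against WT they were 0.03, 0.04 and 0.13, and in hetX753 against hetL1002P -0.46, -0.23 and -0.11, in the same order of classes. No collagen was called after this correction. The hetL1002P medians against WT were nearer to 0 than without the correction, and the fibrillar median of hetX753 against WT was further below 0.

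**Figure D4:**
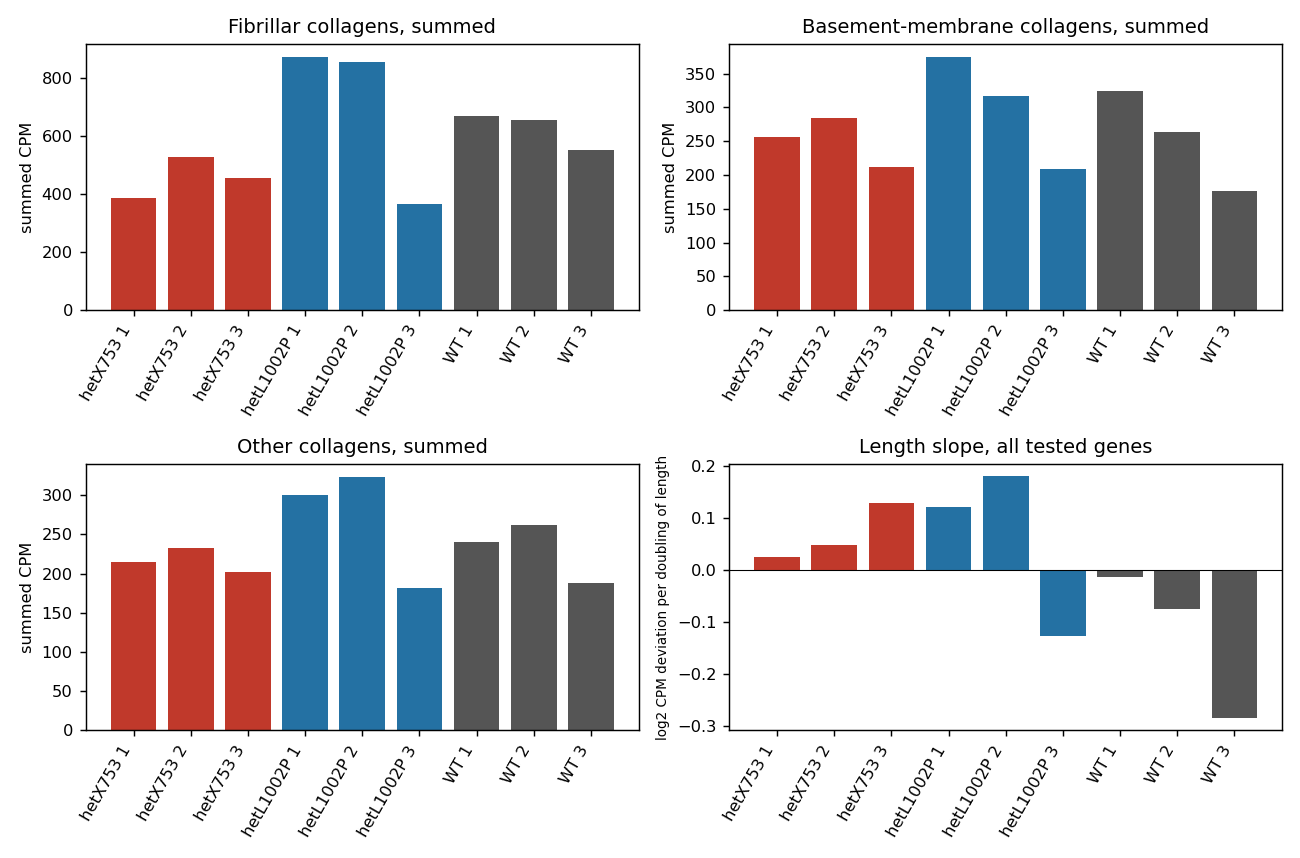
Summed CPM of the fibrillar, basement-membrane and other collagens in each library, and (bottom right) the change in level per doubling of transcript length over all tested genes; hetX753, hetL1002P and WT run from left to right. The fibrillar sum was 387 to 528 CPM in hetX753, 365 to 873 in hetL1002P and 551 to 670 in WT libraries, and hetL1002P 3 and WT 3 have the lowest length slopes (-0.128 and -0.285).

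The make-up of the collagen transcripts, as shares of their summed CPM per kb, was also set beside the genotypes. Fibrillar collagens made up 46.0%, 51.3% and 53.4% in hetX753 libraries, 57.2%, 57.7% and 48.9% in hetL1002P libraries, and 55.0%, 55.8% and 60.6% in WT libraries. The hetX753 shares all lay below the WT shares, and hetL1002P spanned both. Basement-membrane collagens made up 28.1%, 25.4% and 22.6% in hetX753 libraries, 22.3%, 19.6% and 25.8% in hetL1002P libraries, and 24.2%, 20.6% and 17.6% in WT libraries. These overlapped. Other collagens made up 25.9%, 23.4% and 24.0% in hetX753 libraries, 20.4%, 22.8% and 25.3% in hetL1002P libraries, and 20.7%, 23.6% and 21.8% in WT libraries, also with overlap. No test was made of these shares, and with 3 libraries against 3 an exact permutation test could not pass 0.05.

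Some chains that assemble into the same protein kept close ratios while their levels moved, and others did not. The ratio of Col1a1 to Col1a2 in CPM per kb was 0.629 to 0.752 over the 9 libraries. Its SD was 0.0873 on the log2 scale, against 0.526 for Col1a1 and 0.524 for Col1a2. The ratio of Col4a1 to Col4a2 had an SD of 0.107 on the log2 scale, against 0.371 and 0.329 for the chains. It was 1.10, 1.13 and 1.14 in hetX753 libraries, 1.24, 1.29 and 1.16 in hetL1002P libraries, and 1.26, 1.38 and 1.17 in WT libraries, so all hetX753 ratios lay below all others. Col4a1 and Col4a2 lie head to head on chromosome 8 (11198423 to 11312889 on the minus strand and 11312805 to 11449287 on the plus strand, GRCm38.p6), and their exons overlap. The library kit does not mark strand, so reads in that overlap cannot be assigned to either gene. The ratio of Col6a1 to Col6a2 was 1.09, 1.33 and 1.39 in hetX753 libraries, 1.12, 1.21 and 1.06 in hetL1002P libraries, and 1.11, 1.10 and 1.09 in WT libraries, with overlap, and its SD on the log2 scale was 0.139. For Col5a1 to Col5a2 the SD was 0.142, for Col6a3 to Col6a1 0.202 and for Col5a3 to Col5a1 0.268. The ratio of Col4a3 to Col4a4, both of them low, varied most, from 0.782 to 2.53 with an SD of 0.554. Across proteins, the ratio of Col4a1 to Col1a1 was 1.36, 1.04 and 0.770 in hetX753 libraries, 0.739, 0.682 and 1.07 in hetL1002P libraries, and 0.883, 0.725 and 0.576 in WT libraries. The SD of this ratio was 0.386 on the log2 scale, above that of each pair within a protein except the low Col4a3 and Col4a4. For Col15a1 to Col18a1, also of different proteins, the SD was 0.338. For Col3a1 to Col1a1 it was 0.229, below the 0.268 of Col5a3 to Col5a1.

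**Figure D5:**
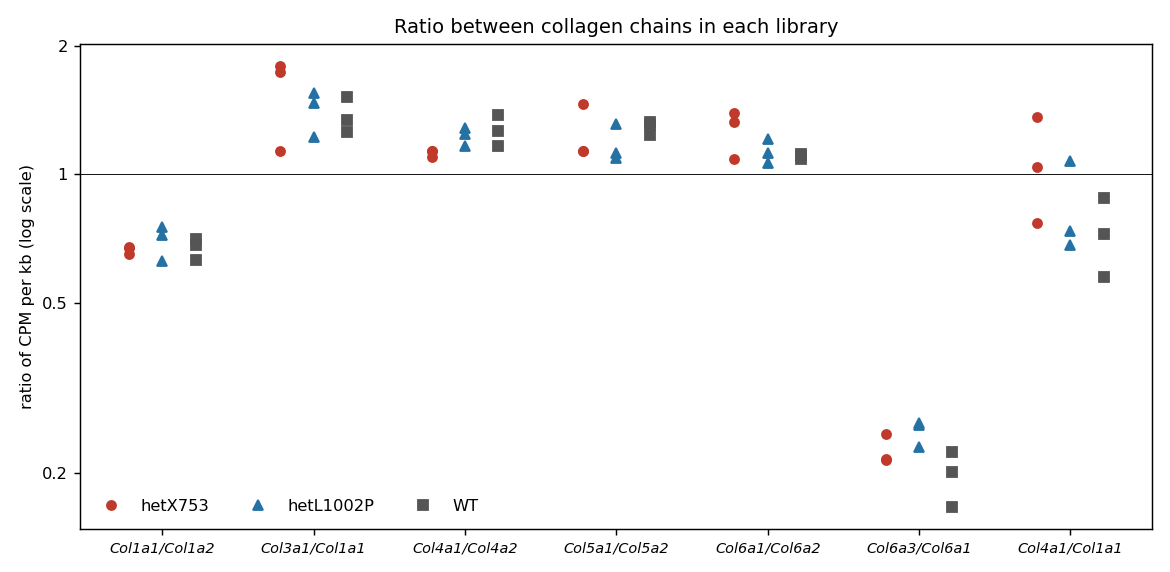
Ratio of CPM per kb between pairs of collagen chains (log axis); each point is a library, with hetX753, hetL1002P and WT from left to right. Col1a1 to Col1a2 stays between 0.629 and 0.752, and the 3 hetX753 ratios of Col4a1 to Col4a2 (1.10 to 1.14) lie below those of the other 6 libraries.

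Genes that make, process and bind collagen were read from lists, and 0 were called in any comparison. Pcolce, which speeds the removal of the procollagen tail, came closest. It had 28.7, 28.5 and 26.9 CPM in hetX753 libraries, 38.6, 40.8 and 32.5 CPM in hetL1002P libraries, and 38.5, 44.6 and 41.8 CPM in WT libraries. The hetX753 values lay below all others, at a log2 fold change of -0.57 ± 0.12 against WT (adjusted p = 0.0689, edgeR). Creb3l1, a transcription factor that activates type I collagen in mouse bone, had a log2 fold change of -0.90 ± 0.30 in hetX753 against WT (adjusted p = 0.162). Leprel1, also called P3h2, a prolyl 3-hydroxylase of basement-membrane collagen, had 1.01 ± 0.34 (adjusted p = 0.159). The 22 tested genes of intracellular collagen synthesis had a median of -0.04 and the 12 of processing and cross-linking 0.06 in hetX753 against WT.

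Itga1, the integrin chain that binds type IV collagen, had 5.35, 5.56 and 5.4 CPM in hetX753 libraries, 5.59, 7.26 and 3.04 CPM in hetL1002P libraries, and 3.08, 2.58 and 1.84 CPM in WT libraries. The hetX753 values lay above the WT values, and hetL1002P overlapped WT by library 3. The log2 fold changes against WT were 1.11 ± 0.30 in hetX753 and 1.08 ± 0.30 in hetL1002P (adjusted p = 0.121 and 0.579). Of the 14 tested non-collagen genes of the basement membrane, such as laminins and nidogens, 12 lay above 0 in hetX753 against WT (median 0.22) and 14 in hetL1002P against WT (median 0.30). Of all tested genes 50.4% and 51.9% lay above 0. These genes were not read with the length and GC trend removed. Among the 14, Lama5 had a log2 fold change of 0.57 ± 0.19 in hetX753 against WT (adjusted p = 0.16). The 9 small leucine-rich proteoglycans, which bind fibrils, had a median of 0.19, the 8 tested collagen receptors 0.05, and the 18 genes of TGF-beta signalling -0.01 in hetX753 against WT. The closest of the last list was Tgfbr1, a TGF-beta receptor, at 0.50 ± 0.12 (adjusted p = 0.0987, edgeR).

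Markers of fibroblasts, tendon cells, macrophages and muscle fibres lay mostly below WT in hetX753 libraries, as the abundant fibrillar genes did, and 0 of them were called. The 15 fibroblast markers summed to 1582 to 1688 CPM in hetX753, 1279 to 2401 in hetL1002P and 1657 to 2361 in WT libraries. Of these, 14 of 15 had a log2 fold change below 0 in hetX753 against WT (median -0.28), where 49.6% of all tested genes lay below 0 and 0.177% were called lower. The 10 tendon markers summed to 122 to 239 CPM in hetX753, 157 to 287 in hetL1002P and 215 to 221 in WT libraries, with 7 of 10 below 0 in hetX753 against WT. Scx, the tendon transcription factor, had 4.02, 4.46 and 4.85 CPM in hetX753 libraries, 6.02, 4.85 and 6.26 CPM in hetL1002P libraries, and 6.6, 8.21 and 7.64 CPM in WT libraries. Its log2 fold change in hetX753 against WT was -0.75 ± 0.17 (adjusted p = 0.0798, edgeR). Endothelial markers summed to 311 to 322 CPM in hetX753, 248 to 327 in hetL1002P and 286 to 337 in WT libraries. The 10 muscle fibre markers summed to 208424 to 225515 CPM in hetX753, 219803 to 252719 in hetL1002P and 251139 to 283026 in WT libraries, with 8 of 10 below 0 in hetX753 against WT (median -0.32). The 10 macrophage markers summed to 88.1 to 94.5 CPM in hetX753, 77.9 to 154 in hetL1002P and 83.4 to 141 in WT libraries, with 10 of 10 below 0 in hetX753 against WT (median -0.45). Among them Aif1, an actin-binding protein of macrophages, had a log2 fold change of -1.41 ± 0.41 (adjusted p = 0.133, edgeR). In hetL1002P against WT, 9 of 15 fibroblast, 3 of 10 tendon, 5 of 10 macrophage and 7 of 10 muscle fibre markers lay below 0. Of all tested genes 48.1% did. These markers were not read with the length and GC trend removed. The length slopes were 0.0250, 0.0474 and 0.129 in hetX753 libraries and -0.0139, -0.0748 and -0.285 in WT libraries. The part of these cells in the collagen values was not tested.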

How the data were processed

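The table the authors deposited holds raw read counts by gene symbol for 9 libraries, without normalization. Per the submitters' processing notes, Subread, featureCounts 1.4.6, Bowtie2 2.2.6, TopHat2 2.0.14 and build mm10 were used, with no role or order given; the sources used here name neither the annotation nor the strand setting. Per the labels' protocols, libraries were made with the TruSeq RNA kit v2, which does not mark strand, so reads of overlapping genes on opposite strands (besides Col4a1 and Col4a2, also Col4a3, Col5a1, Col6a4, Col6a6, Col9a3, Col10a1, Col15a1 and Col22a1 with other transcripts) cannot be told apart, and Col3a1, Col7a1 and Col20a1 share exon bases with a gene on their own strand. Groups are the genotypes in the sample titles. Within genotypes every pair of libraries differed beyond sampling noise (chi-square over its degrees of freedom, 14.9 to 68.5).

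Genes kept by filterByExpr were scaled by TMM and tested by edgeR 4.0.16 in R 4.3.3, with a robust quasi-likelihood fit of all 9 libraries on genotype (6 residual degrees of freedom). Benjamini-Hochberg adjustment covered all 12989 genes, and an adjusted p under 0.05 was called. Adjusted p-values are from this fit unless the text names a different one. CPM divides each count by its library's TMM-adjusted size; CPM per kb divides this by a GENCODE M21 transcript length. A standard error is the log2 fold change divided by the square root of F. The code was tested on simulated data.

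DESeq2 1.42.0, other scalings, no filter, a length and GC trend (smooth curves per library, given to edgeR as offsets), left-out libraries, fits of 2 genotypes alone and a replicate block were alternatives. Replicate numbers come from the titles. Between hetL1002P and WT libraries of the same number, deviations from the genotype means had r = 0.285, 0.36 and 0.516, above the bound of 0.1, which counts as paired. The 0.516 joins WT 3 and hetL1002P 3, and unlike-numbered libraries of these 2 genotypes had r from -0.454 to 0.198. Deviations cancel within a genotype, so these r are not separate observations, and the labels do not say what the numbers mark. With hetX753 the r of same-numbered pairs ran from -0.279 to 0.164, which does not count as paired. Members, classes and lists were chosen with earlier results of these data known. Described singly are the 15 collagens with the highest mean CPM, any past the threshold, and the 3 with the smallest p in each comparison; other members named, and those without overlap, were chosen after their values were seen. From lists, up to 3 genes with the smallest p per comparison were eligible. Symbols of 7 list genes were matched through RefSeq synonyms, and gene positions and promoters are from RefSeq GRCm38.p6.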

Additional observations from a re-analysis of the deposited data

How the results depend on the processing

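The count of collagens called was 0 under DESeq2's size factors, library totals, no low-count filter, DESeq2, removal of the length and GC trend alone and a replicate block over all 9 libraries, in each comparison. With 2 genotypes alone and a replicate block, 1 collagen was called in hetL1002P against WT (Col6a3). In a fit of hetX753 and WT alone, with a replicate block and the length and GC trend removed, 3 were called lower in hetX753. These were Col1a1, Col1a2 and Col5a3 (adjusted p = 0.0277, 0.0266 and 0.0305, edgeR), where 0.693% of 12698 tested genes were called lower. The hetX753 libraries are not paired with WT by number, and the cause was not tested. Without both WT 3 and hetL1002P 3, 1 was called in hetX753 against WT, 7 in hetX753 against hetL1002P and 6 jointly. Leaving out single libraries gave 0 to 1 in hetX753 against hetL1002P and 0 to 2 jointly, the upper values without hetL1002P 3, and 0 in the comparisons with WT.

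Over all genes, the 66 called in hetX753 against WT became 31 with library totals, 640 with DESeq2, 254 with 2 genotypes alone, 106 with these and a replicate block, 183 with a block and the trend removed, 340 without both WT 3 and hetL1002P 3, and 0 to 669 leaving out single libraries. The 0 in hetL1002P against WT became 2 with no filter, 1 with the trend removed, 2 without both WT 3 and hetL1002P 3, 635 with a block in 2 genotypes, 1 with that block and the trend removed, 5 with DESeq2, and 0 to 1 leaving out single libraries (1 without hetL1002P 3). The 15 in hetX753 against hetL1002P became 38 with no filter, 31 with a replicate block over 9 libraries, 48 with the trend removed, 95 without both WT 3 and hetL1002P 3, 5 with 2 genotypes alone, 2 with these and a block, 3 with the trend removed as well, 138 with DESeq2, and 0 to 19 leaving out single libraries. Single libraries that moved the first count by over 1.5 times were WT 1 (0), WT 2 (9), WT 3 (7), hetL1002P 1 (13), hetL1002P 3 (669), hetX753 1 (34), hetX753 2 (17) and hetX753 3 (3). For the last count they were hetL1002P 1 (0), hetL1002P 2 (2), hetX753 1 (7) and hetX753 3 (3).

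Of the 54 log2 fold changes of 18 named collagens, these changed sign, each below the threshold. With library totals, Col5a2 was 0.022 and Col6a3 0.0527 in hetX753 against WT. With the trend removed, Col22a1 was -0.0838 and Col4a2 -0.10 in hetX753 against WT, and in hetL1002P against WT Col3a1 was -0.0801, Col1a1 -0.0631, Col22a1 -0.27, Col5a1 -0.0076, Col1a2 -0.0904 and Col5a3 -0.11. Without both WT 3 and hetL1002P 3, Col4a2 was -0.11 in hetX753 against WT, and Col8a1 -0.11 and Col24a1 -0.0287 in hetX753 against hetL1002P. With a replicate block in 2 genotypes, Col1a2 was -0.022 in hetL1002P against WT. With that block and the trend removed, Col22a1 was -0.0427, Col4a2 -0.10 and Col7a1 -0.0001 in hetX753 against WT, and Col3a1 was -0.11, Col1a1 -0.13, Col22a1 -0.22, Col5a1 -0.0149, Col1a2 -0.16 and Col5a3 -0.13 in hetL1002P against WT. Leaving out single libraries, the ranges that crossed 0 in hetX753 against WT were -0.28 to 0.0527 for Col5a2, -0.26 to 0.0764 for Col6a3, -0.34 to 0.11 for Col4a1, -0.11 to 0.31 for Col4a2 and -0.0008 to 0.52 for Col7a1. In hetL1002P against WT they were -0.0359 to 0.44 for Col3a1, -0.0014 to 0.37 for Col6a2, -0.0054 to 0.45 for Col6a1, -0.17 to 0.31 for Col18a1, -0.13 to 0.47 for Col1a1, -0.12 to 0.44 for Col1a2, -0.0193 to 0.43 for Col4a1, -0.22 to 0.34 for Col5a3 and -0.35 to 0.17 for Col7a1. In hetX753 against hetL1002P they were -0.11 to 0.31 for Col18a1, -0.36 to 0.039 for Col4a2, -0.10 to 0.21 for Col8a1 and -0.0267 to 0.41 for Col24a1.

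The medians of the 3 classes moved by less than their SD between libraries under each alternative, though several changed sign; those of type IV chains alone equalled those of the 8 basement-membrane genes. Among genes averaging at least 10 CPM, the median coefficient of variation within genotypes was 24.5% for the 15 collagens and 11.3% for all 6840 genes. With 3 libraries a genotype, a difference of the size seen for type I did not reach the threshold. Collagens averaging under about 1 CPM rest on few counts and were not resolved at this depth. The cause of the low levels in WT 3 and hetL1002P 3 was not tested.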
